A study of Mus musculus with 9 samples.

Results

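Conjugation and aldehyde detoxification enzymes were followed across the corpus, the squamocolumnar junction and the forestomach of the mouse stomach. The members are the genes of all probe sets whose only gene symbol starts with Gsta, Gstm, Gstp, Gstt, Gsto, Gstk, Ugt1, Ugt2, Sult, Aldh, Akr1, Aox or Nqo, with the retinaldehyde dehydrogenases Aldh1a1, Aldh1a2 and Aldh1a3 left out. This gave 111 probe sets of 76 genes, out of 34958 probe sets of 18193 genes with a single symbol. The rule itself reads names and no measured value. Of the 76 genes, 60 passed the filter on dim values (a signal above the array's own 40th percentile on at least 3 of the 9 arrays), 43 of them on all 9 arrays. Each was represented by its brightest probe set that passed. The 16 below the filter were Akr1c6, Akr1c18, Akr1c20, Akr1cl, Akr1d1, Aldh8a1, Gstt4, Sult1c1, Sult2a2, Sult2a8, Sult3a1, Sult6b1, Ugt2b1, Ugt2b5, Ugt2b37 and Ugt2b38.

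These families form the second line of chemical defence in a tissue. Glutathione transferases (Gst) couple electrophiles to glutathione, UDP-glucuronosyltransferases (Ugt) attach glucuronic acid taken from UDP-glucuronate, and cytosolic sulfotransferases (Sult) attach a sulfate group taken from the donor PAPS. Aldehydes, which arise from lipid peroxidation, alcohol and amino acid breakdown, are oxidised to acids by aldehyde dehydrogenases (Aldh) and by the molybdenum-containing aldehyde oxidases (Aox), or reduced to alcohols by aldo-keto reductases (Akr), several of which also act on steroids. Quinone reductases (Nqo) reduce quinones without the release of radicals. Several of these genes are textbook targets of the transcription factor Nrf2 (gene Nfe2l2), which binds antioxidant response elements, or of the aryl hydrocarbon receptor, which binds xenobiotic response elements.

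The groups were corpus, the acid-secreting glandular stomach, forestomach, the upper compartment of a rodent's stomach with its stratified squamous lining, and the junction between them, each with 3 arrays. All tissue came from untreated, healthy C57Bl/6 females aged 3 months kept on a standard diet. Adjoining stripes of 600 to 800 µm were cut from 9 stomachs, and tissue of 3 mice was pooled for each of 3 series, so every array is a pool and arrays of one series share mice. The spread between arrays of a zone is therefore between pools, and 3 arrays a zone limit the precision of every value. A stripe holds the whole set of cells cut with it. In such bulk samples fewer cells of a type and less RNA per cell cannot be told apart.

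The labelled tissues carried their markers. Squamous markers were higher in the forestomach than in the corpus for 11 of 11 genes tested, with a summed signal of 1809 to 4001 in the corpus, 75090.2 to 98531 in the junction and 100814 to 107305 in the forestomach. Parietal cell markers were lower in the forestomach for 10 of 10, with sums of 43372 to 59108 in the corpus, 36230.4 to 43905 in the junction and 2281 to 4284 in the forestomach. Corpus transcripts were unequal on the forestomach arrays. The summed signal of 7 chief cell markers was 163.9, 727.4 and 2323 on forestomach arrays 1, 2 and 3, and that of 9 mucous cell markers was 1343, 24421 and 30500.2. All 10 smooth muscle markers were higher in the forestomach, with sums of 57214 to 62697 against 21560.4 to 31458 in the corpus and 24529 to 29302 in the junction. The part of cell make-up in the differences below was not tested. Hepatocyte markers, which would mark the organ richest in these enzymes, summed to 629.6 to 942.1 in the corpus, 569.6 to 706.6 in the junction and 113.0 to 584.1 in the forestomach over 6 genes tested.

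Between forestomach and corpus, 16 of the 60 members were higher in the forestomach and 28 lower by limma (two-sided, Benjamini-Hochberg adjusted p under 0.05 over all 13637 genes tested). Over all genes the shares called were 30.0% higher and 29.9% lower, against 26.7% and 46.7% of the members. The median difference of the members was -0.38 on the scale of log2(signal + 9.8), which understates folds of dim genes, and that of all genes was -0.01. Folds below are back-transformed from differences on this scale and are not ratios of mean signals. By the fitted differences, 28 members differed by 2-fold or more and were called, where 25.6% of all genes did. For 8 members one zone lay below the filter level on all its arrays. They passed the filter through their brighter zones only, so their calls are not independent of it. The fold of such a gene is given below as a lower bound, the brighter zone's mean against the filter level of the dim arrays (means of log2 signals). The adjusted p printed beside a bound is that of limma's fitted difference, and the bound itself was not tested. With these 8 at their bounds the median of the members was still -0.38, and 23 members in place of 28 differed by 2-fold or more. Bounds were not set for the other genes, so no like share over all genes stands beside the 23. By family, of 18 glutathione transferases 6 were higher and 7 lower in the forestomach, of 16 aldehyde dehydrogenases 4 and 7, of 8 sulfotransferases 3 and 3, and of 3 aldehyde oxidases 2 and 1. Of 9 aldo-keto reductases 1 was higher and 6 lower, of 4 UDP-glucuronosyltransferases 0 and 3, and of 2 quinone reductases 0 and 1.

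**Figure D1:**
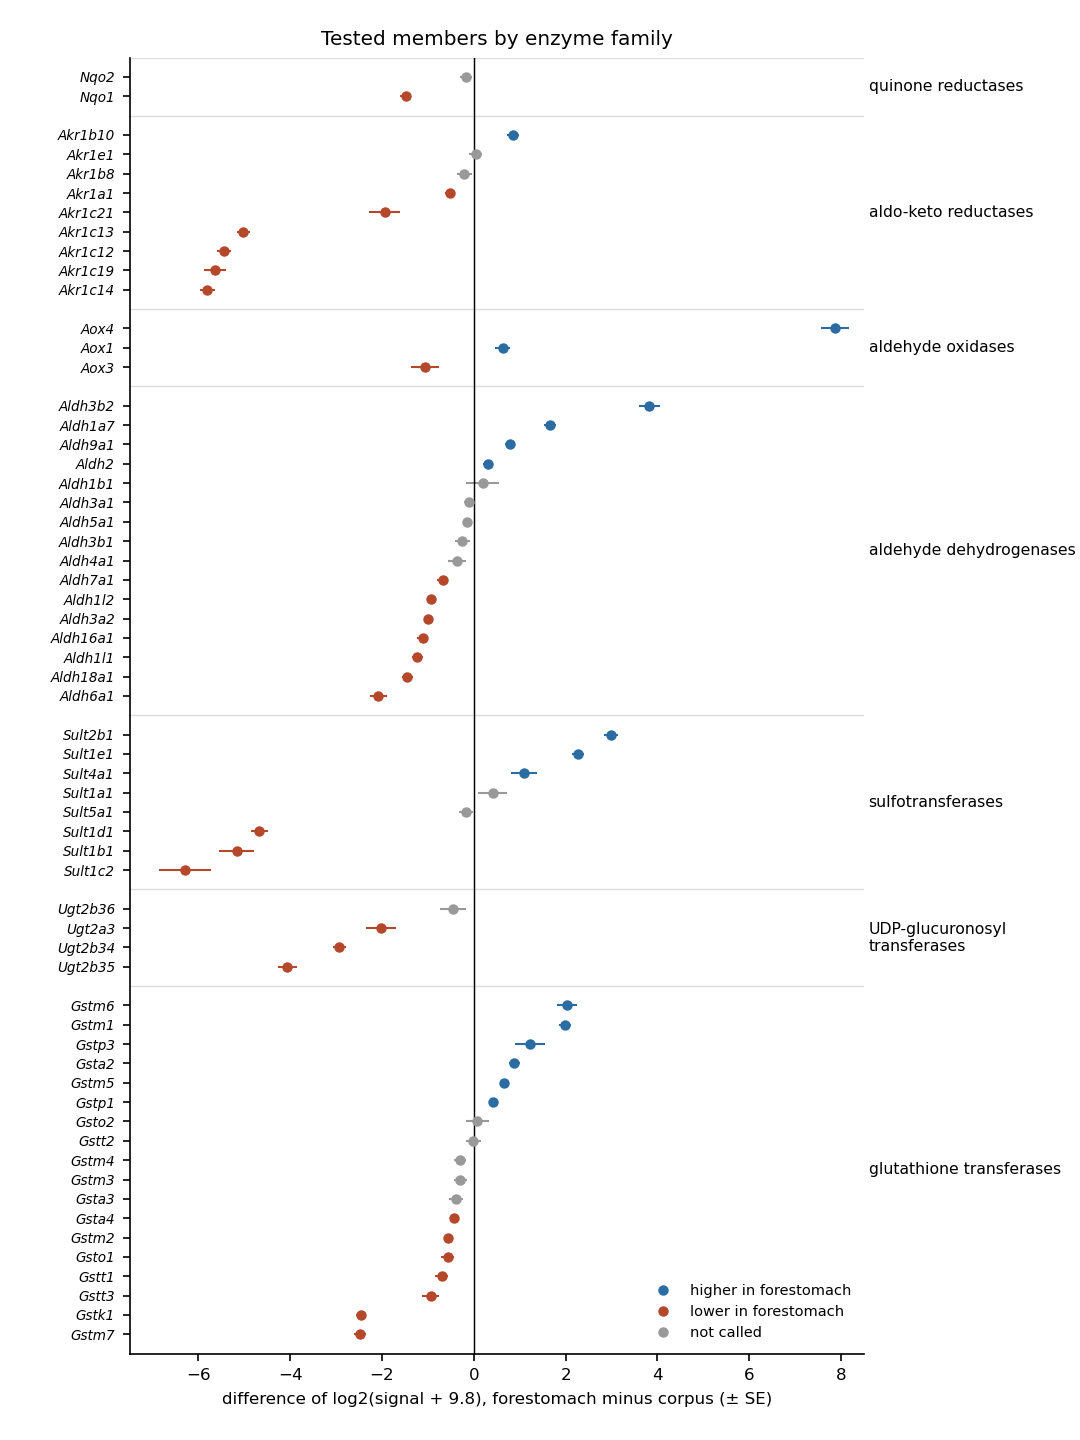
Difference between forestomach and corpus for the 60 tested members, grouped by family, on the scale of log2(signal + 9.8), with the standard error of the limma fit as a bar. Genes with a zone below the filter level are shown at their fitted values. Blue points are the 16 genes called higher in the forestomach, red points the 28 called lower and grey points the 16 not called, and the 4 Akr1c genes and 3 Sult1 genes at the left edge stand opposite Aox4 at the right edge.

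Sequences upstream of the genes are shown for 2 sets of members, those with the letters of the antioxidant response element that were higher in the forestomach, and a pair of aldo-keto reductase genes that were lower together. They are RefSeq sequences of build GRCm38.p6 and run 5′ to 3′ on the gene's strand over the 250 bases before its start. The core searched was TGACNNNGC on both strands, in windows that also took in the first bases of the transcript (300 bases in all). It was found for 5 of the 52 members with a promoter in the table, against 14% of 27025 genes and 12.4% of 32851 promoters. It occurred in 2 of the 13 genes higher in the forestomach (Gstm5 and Aldh9a1), in 2 of the 25 lower (Akr1c19, and Gstm7 for one of its starts) and in 1 of the 14 not called (Gsta3). The Gstm5 window lies at chr3:107895604-107895853 on the plus strand and the Aldh9a1 window at chr1:167349741-167349990 on the plus strand, and capitals mark the core.
Gstm5: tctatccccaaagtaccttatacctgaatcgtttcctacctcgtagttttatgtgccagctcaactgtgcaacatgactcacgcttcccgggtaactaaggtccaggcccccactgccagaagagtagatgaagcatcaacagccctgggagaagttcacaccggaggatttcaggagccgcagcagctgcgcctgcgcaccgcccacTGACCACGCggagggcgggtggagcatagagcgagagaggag
Aldh9a1: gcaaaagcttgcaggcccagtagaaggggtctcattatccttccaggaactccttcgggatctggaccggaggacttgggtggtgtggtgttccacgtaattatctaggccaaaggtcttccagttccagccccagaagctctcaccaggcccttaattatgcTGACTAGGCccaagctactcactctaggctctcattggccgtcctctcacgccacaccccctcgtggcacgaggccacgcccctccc
The core of the xenobiotic response element, GCGTG on both strands, was found for 18 of the 52 members against 35.2% of genes and 32.4% of promoters, in 8 of the 13 higher, 7 of the 25 lower and 3 of the 14 not called. These matches describe letters in a window and not binding, and no test was made of them.

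Akr1c12 (chr13:4279400-4279649, minus strand) and Akr1c13 (chr13:4190937-4191186, plus strand) had nearly the same upstream sequence. In an end-gap-free alignment 235 of 247 columns were identical (95.1%). Capitals mark the longest stretch shared without a difference, 75 bases.
Akr1c12: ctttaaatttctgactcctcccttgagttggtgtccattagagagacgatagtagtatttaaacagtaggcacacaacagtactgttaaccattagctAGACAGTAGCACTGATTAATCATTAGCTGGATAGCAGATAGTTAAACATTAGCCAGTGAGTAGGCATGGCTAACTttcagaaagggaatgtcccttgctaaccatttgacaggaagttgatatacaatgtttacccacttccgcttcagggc
Akr1c13: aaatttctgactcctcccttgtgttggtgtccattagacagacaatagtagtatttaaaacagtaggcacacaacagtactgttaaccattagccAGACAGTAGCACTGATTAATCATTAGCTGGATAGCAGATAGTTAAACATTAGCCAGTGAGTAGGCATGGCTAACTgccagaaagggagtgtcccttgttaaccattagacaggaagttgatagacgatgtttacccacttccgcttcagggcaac
Their neighbour Akr1c19 matched Akr1c12 at 131 of 210 columns (62.4%) and Akr1c13 at 157 of 259 (60.6%). Probes can share targets among such close copies, so the separate levels of Akr1c12 and Akr1c13, and of members of the Gsta, Gstm and Ugt2b groups, are uncertain.

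Aldo-keto reductases of the Akr1c group were among the members lowest in the forestomach relative to the corpus. Akr1c14, a steroid hydroxysteroid dehydrogenase, had signals of 2438, 2249 and 2574 in the corpus, 1695, 1439 and 1438 in the junction and 23.7, 40 and 39 in the forestomach. The zones did not overlap, and 2 of the 3 forestomach arrays were above the filter level. The difference was -5.81 ± 0.16 (SE), a 56-fold lower level (limma adjusted p = 7.07e-08). Akr1c12 had 1727, 1378 and 1479 in the corpus against 20.6, 33.4 and 23.7 in the forestomach, where 1 array passed the filter level (-5.44 ± 0.16, adjusted p = 8.00e-08). Akr1c13 had 1679, 1825 and 1881 against 32.9, 53 and 53.6 (-5.02 ± 0.15, adjusted p = 8.80e-08). A probe set that the annotation assigns to both Akr1c12 and Akr1c13, and which is no member, gave 3821, 3602 and 3855 in the corpus, 2834, 2141 and 2324 in the junction and 16, 61.7 and 55.5 in the forestomach, so the shared and the separate probe sets ran the same way. Akr1c19 was below the filter level on all forestomach arrays, with 25.1, 9.2 and 10.5 there and 1134, 1058 and 1329.5 in the corpus, at least 39.4-fold lower (adjusted p = 2.51e-07). Akr1c21, which acts on steroids as well, was dim throughout, with 81.4, 42.2 and 57 in the corpus and 13.7, 5.8 and 5.6 in the forestomach, at least 1.96-fold lower (adjusted p = 0.00111). The progesterone-inactivating Akr1c18 stayed below the filter level on every array.

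Outside the Akr1c group the differences were small. Akr1a1, the aldehyde reductase that in mice also serves ascorbate synthesis, had 11142, 11302 and 10074 in the corpus and 7256, 7392 and 7989.8 in the forestomach (-0.52 ± 0.10, adjusted p = 0.00163), and its 3 dimmer probe sets were lower by more, from -0.98 to -0.86. Akr1b10 was higher in the forestomach, with 193, 233 and 184 against 363, 334 and 421 (0.85 ± 0.13, adjusted p = 5.49e-04), and all 3 forestomach arrays exceeded all 3 of the corpus. A second, dimmer Akr1b10 probe set was not called (0.24, adjusted p = 0.286). Akr1b8 and Akr1e1 were not called (-0.21 ± 0.16, adjusted p = 0.278, and 0.04 ± 0.14, adjusted p = 0.805). Without forestomach array 2, Akr1b8 was called lower (-0.39, adjusted p = 0.0374).

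Sulfotransferases fell into opposite groups. Sult1c2, a phenol-type sulfotransferase, had signals of 5107, 4995 and 4898 in the corpus, 4146, 3417 and 3483 in the junction and 11.1, 81.7 and 126 on forestomach arrays 1, 2 and 3, a 78.4-fold lower level in the forestomach on the fitted scale (-6.29 ± 0.57, adjusted p = 2.02e-05). Its forestomach values spread over more than an order of magnitude, in the order of the chief cell marker sums given above. Without forestomach array 1 the difference was -5.49, or 44.9-fold. The array order was the same for Sult1d1 and Sult1b1 but not for Akr1c12, Akr1c19 or Ugt2b34, and a link to the markers was not tested. Sult1d1, which sulfates catecholamines, had 3088, 3238 and 3573, then 1984, 1855 and 1918, then 83.8, 136 and 150.1 in corpus, junction and forestomach (-4.67 ± 0.18, forestomach minus corpus, adjusted p = 2.00e-07). Sult1b1, which acts on thyroid hormones and phenols, had 1438, 1289 and 1723 in the corpus and 11.1, 33.4 and 67.7 in the forestomach (-5.17 ± 0.39, adjusted p = 6.89e-06), with 2 of 3 forestomach arrays above the filter level. For all 3 genes the lowest forestomach array was array 1, and no forestomach array reached a corpus or junction array.

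The sulfotransferases higher in the forestomach were Sult2b1, Sult1e1 and Sult4a1. Sult2b1, the cholesterol and pregnenolone sulfotransferase known from cornifying epithelia, had 134, 99.8 and 116 in the corpus, 373, 506 and 526 in the junction and 948, 1033 and 976 in the forestomach, with no overlap between any zones (2.99 ± 0.15, 7.93-fold, adjusted p = 6.17e-07). Sult1e1, the oestrogen sulfotransferase, passed the filter level only on the forestomach arrays, at 53.7, 44.8 and 42.8, with 1.1, 4.2 and 1 in the corpus and 4.3, 2.4 and 2.9 in the junction. That is at least 1.35-fold higher than in the corpus (adjusted p = 1.35e-06). Sult4a1, best known from brain, was similarly dim, with 31.3, 39.5 and 46.3 in the forestomach and 7.3, 16.4 and 16.7 in the corpus, at least 1.11-fold higher (adjusted p = 0.00898). It too passed the filter level only on the forestomach arrays. Its second probe set did not pass, with means of 6.57 in the corpus, 11.2 in the junction and 11.1 in the forestomach. Sult1e1 and Sult4a1 thus entered the test through their forestomach signals alone, and their calls are not independent of the filter. With no filter the same 16 members were called higher in the forestomach. Sult1a1, the main phenol sulfotransferase, was not called between these zones, with 447, 326 and 491 in the corpus and 522, 394 and 824 in the forestomach (0.41 ± 0.31, adjusted p = 0.281). Its arrays deviated together within a series, and with the series as a paired block it was called higher (adjusted p = 0.0293). Sult5a1 was not called (-0.17 ± 0.15, adjusted p = 0.338).

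The UDP-glucuronosyltransferases that passed the filter all belonged to the Ugt2 group, which conjugates steroids, bile acids and drugs. Ugt2b34 had signals of 3689, 3139 and 3321 in the corpus, 2905, 2303 and 2443 in the junction and 457, 362 and 494 in the forestomach (-2.93 ± 0.14, 7.62-fold lower, adjusted p = 4.92e-07). Its corpus and junction arrays were close and all forestomach arrays lay far below. Ugt2b35 had 579.7, 401 and 446 in the corpus and 15.1, 22 and 20.3 in the forestomach, all 3 of the latter below the filter level, so at least 15.8-fold lower (adjusted p = 6.57e-07). Ugt2a3 was dim, with 45.1, 36.8 and 55.1 in the corpus and 0.5, 1.7 and 11 in the forestomach, at least 1.52-fold lower (adjusted p = 6.64e-04). Ugt2b36 was not called (-0.45 ± 0.28, adjusted p = 0.197). No Ugt1 gene is a member, because the probe sets of this locus carry the symbols of 8 genes that share their last exons. The brightest of the 3 shared Ugt1a probe sets gave 3957, 4019 and 3844 in the corpus, 4643, 5094 and 5470.4 in the junction and 5968, 5740.3 and 5566 in the forestomach. On each of the 3 every forestomach array exceeded every corpus array, opposite to the called Ugt2 genes. No test was made of these values.

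**Figure D2:**
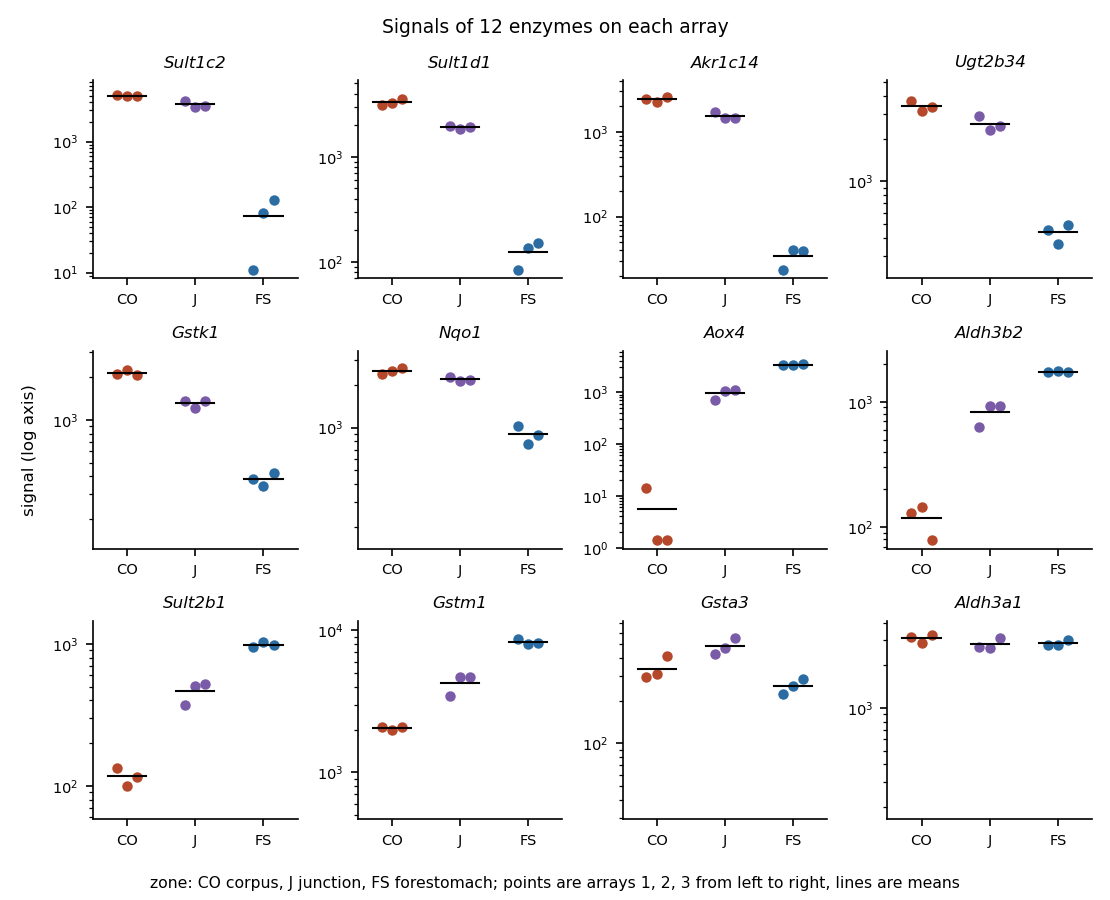
Signals of 12 enzymes on each array, on a log axis that differs between panels, with corpus (CO), junction (J) and forestomach (FS) from left to right and a line at the mean of 3 arrays. Sult1c2, Sult1d1, Akr1c14, Ugt2b34, Gstk1 and Nqo1 were lowest in the forestomach, Aox4, Aldh3b2, Sult2b1 and Gstm1 were highest there, Gsta3 was highest in the junction, and Aldh3a1 lay between 2666 and 3247 on all 9 arrays.

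Aldehyde oxidase Aox4, an enzyme known from skin and the Harderian gland, had the largest difference of any member. Its signals were 14.2, 1.4 and 1.4 in the corpus, all below the filter level, 718, 1062 and 1124 in the junction and 3281, 3380.2 and 3439 in the forestomach. The 3 zones did not overlap. The forestomach was at least 97.2-fold above the corpus (fitted difference 7.87 ± 0.30, adjusted p = 1.68e-07), and the junction at least 27.4-fold (adjusted p = 2.63e-06). The fitted fold of 234 depends on the pseudocount and ran from 94.1 with the larger pseudocount of 30.9 to 758.3 with a pseudocount of 1. The other oxidases, known mainly from liver, were dim. Aox1 had 58.7, 50.7 and 62.2 in the corpus and 97, 78.1 and 109 in the forestomach (0.63 ± 0.16, adjusted p = 0.00941). Aox3 had 59.4, 59.5 and 64 and 33.2, 10.7 and 34.2 (-1.06 ± 0.30, adjusted p = 0.0145), so it was lower in the forestomach where its relatives were higher.

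Among the aldehyde dehydrogenases, those higher in the forestomach were Aldh3b2, Aldh1a7, Aldh9a1 and Aldh2. Aldh3b2, which oxidises long-chain fatty aldehydes, had 129, 146 and 78.4 in the corpus, 627, 933 and 928 in the junction and 1729, 1755 and 1727 in the forestomach (3.82 ± 0.23, 14.1-fold, adjusted p = 1.49e-06). Its neighbouring relative Aldh3b1 was not called (-0.25 ± 0.17, adjusted p = 0.246). Aldh1a7, a rodent relative of the retinaldehyde dehydrogenases, had 1402, 1276 and 1561 in the corpus, 1912, 2274 and 2797 in the junction and 4659, 4406 and 4315 in the forestomach (1.66 ± 0.14, adjusted p = 1.54e-05). Aldh9a1, an enzyme of carnitine synthesis, had 1172, 1115 and 1323 and 2009.8, 2057 and 2160.1 in corpus and forestomach (0.79 ± 0.11, adjusted p = 3.09e-04), whereas its second probe set was not called (0.06, adjusted p = 0.610). Aldh2, the mitochondrial enzyme that clears acetaldehyde, had 2309, 2275 and 2597 and 3115, 2779.8 and 2928 (0.30 ± 0.09, adjusted p = 0.0231). This small rise lost its call without corpus array 1 or 2 or forestomach array 1 or 3 (adjusted p from 0.0534 to 0.0794), and the 4 other Aldh2 probe sets differed by -0.16 to 1.45.

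The 7 aldehyde dehydrogenases lower in the forestomach included enzymes of amino acid and folate metabolism. Aldh6a1, the methylmalonate semialdehyde dehydrogenase of valine breakdown, had 4249.8, 3656 and 4034 in the corpus, 2242, 1490.3 and 1620.5 in the junction and 1027, 768 and 1027 in the forestomach (-2.08 ± 0.18, 4.23-fold lower, adjusted p = 1.31e-05). Aldh18a1, the first enzyme of proline synthesis from glutamate, had 1183, 1087 and 1100.3, then 765, 709 and 605, then 379, 466 and 373 (-1.45 ± 0.12, adjusted p = 1.32e-05). On these probe sets the zones of each gene were in descending order with no overlap. The dimmer Aldh18a1 probe sets differed by -1.01 to -0.63, and that at -0.63 was not called (adjusted p = 0.101). The formyltetrahydrofolate dehydrogenases Aldh1l1 (cytosolic, -1.23 ± 0.12, adjusted p = 2.50e-05) and Aldh1l2 (mitochondrial, -0.94 ± 0.08, adjusted p = 1.59e-05) were lower too. The fatty aldehyde dehydrogenase Aldh3a2 had 990.0, 887 and 1055 in the corpus and 503, 452 and 499.5 in the forestomach (-0.99 ± 0.10, adjusted p = 3.16e-05). Aldh16a1 (-1.11 ± 0.12, adjusted p = 6.35e-05, with a second probe set at -0.29, adjusted p = 0.350) and Aldh7a1, of lysine breakdown (-0.68 ± 0.12, adjusted p = 0.00118), completed the group. Aldh3a1, the dehydrogenase known as a crystallin of the cornea, was not called in any comparison. Its signals were 3140.3, 2883 and 3247 in the corpus, 2701, 2666 and 3115 in the junction and 2778, 2764 and 3019.6 in the forestomach (-0.11 ± 0.10, adjusted p = 0.344). Aldh1b1, Aldh4a1 and Aldh5a1, all mitochondrial, were not called either (differences of 0.19, -0.37 and -0.14, adjusted p = 0.675, 0.129 and 0.188).

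Glutathione transferases differed in direction even within a class. Of the mu class, Gstm1 had 2098, 2002 and 2090.2 in the corpus, 3432, 4710.5 and 4707 in the junction and 8667, 8007 and 8099.7 in the forestomach (1.99 ± 0.13, 3.99-fold higher, adjusted p = 2.53e-06). Its 3 further probe sets were higher by 1.06, 2.20 and 2.29. Gstm6 had 128, 136 and 94.6 in the corpus and 549, 443 and 554 in the forestomach (2.03 ± 0.22, adjusted p = 6.97e-05), and Gstm5 had 1232, 1168 and 1177 and 1886, 1768 and 1972 (0.65 ± 0.09, adjusted p = 2.58e-04). In contrast, Gstm7 had 323, 265 and 287 in the corpus, 159, 114 and 141 in the junction and 46.2, 38.6 and 47.8 in the forestomach (-2.48 ± 0.14, 5.59-fold lower, adjusted p = 1.01e-06). A second Gstm7 probe set differed by 0.21 (adjusted p = 0.510), and the mean of both gave -1.14, or 2.2-fold. Gstm2 was lower by a small margin, with 1685, 1717 and 1670.2 in the corpus and 1158, 1195 and 1085 in the forestomach (-0.56 ± 0.08, adjusted p = 3.27e-04). Gstm3 and Gstm4 were not called (adjusted p = 0.104 and 0.064), though without a forestomach array (array 1 for Gstm3, -0.44, adjusted p = 0.0186, and array 2 for Gstm4, -0.41, adjusted p = 0.0224) they were called lower. A second, dimmer Gstm3 probe set was higher in the forestomach (0.63, adjusted p = 0.0195), so the direction of Gstm3 is not settled here.

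Among the other classes, the kappa transferase Gstk1, a protein of mitochondria and peroxisomes, had 2115, 2243 and 2069 in the corpus, 1353, 1209 and 1359 in the junction and 382, 342 and 420.5 in the forestomach (-2.46 ± 0.10, 5.51-fold lower, adjusted p = 2.27e-07). Gsta4, which conjugates the lipid peroxidation product hydroxynonenal, was bright in every zone, with 11698, 10427 and 9950.2 in the corpus and 7775, 7948 and 8057 in the forestomach (-0.43 ± 0.10, adjusted p = 0.00633). Gsto1, the omega transferase that reduces dehydroascorbate, was similar, with 13812, 13224 and 9693 and 7549.9, 8593 and 8250.0 (-0.57 ± 0.14, adjusted p = 0.0074). The theta genes Gstt1 and Gstt3, which act on small halogenated compounds, were lower in the forestomach (-0.70 ± 0.14, adjusted p = 0.00256, and -0.94 ± 0.19, adjusted p = 0.00287), and Gstt2 was not called (-0.01 ± 0.16, adjusted p = 0.98). Gstp1 of the pi class had 8312, 8831 and 7346 in the corpus and 10726, 11136 and 10918 in the forestomach (0.42 ± 0.10, adjusted p = 0.0045), a call lost with quantile normalization (0.15, adjusted p = 0.104). Its dim relative Gstp3 was below the filter level in the corpus, at 18.8, 2.9 and 26.1, and had 40.4, 46.2 and 50.1 in the forestomach, at least 1.31-fold higher (adjusted p = 0.0106). Gstp3 passed the filter only through junction and forestomach arrays, so its calls against the corpus are not independent of the filter. Gsto2 was not called (0.07 ± 0.25, adjusted p = 0.835).

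The alpha transferase Gsta2 had 1133, 1161 and 1434 in the corpus, 1640.2, 1673 and 1962 in the junction and 2253, 2180.5 and 2418 in the forestomach (0.88 ± 0.12, adjusted p = 2.67e-04), higher in the forestomach. A probe set that the annotation gives to Gsta1, Gsta2 and Gm3776 together ran the other way, with 13875, 13425 and 10449 in the corpus, 12548, 11699 and 12528 in the junction and 2398, 2947 and 3376 in the forestomach, and no overlap between forestomach and the other zones. Which of the 3 transcripts it followed was not tested, so the direction for Gsta2 rests on its single-symbol probe set. Gsta3, which detoxifies the epoxide of aflatoxin in mice, was not called between forestomach and corpus (-0.39 ± 0.16, adjusted p = 0.062), but with the series as a paired block it was called lower (adjusted p = 0.0076), as it was without corpus array 1 (-0.49, adjusted p = 0.0478).

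Of the quinone reductases, Nqo1 had 2377, 2485 and 2626 in the corpus, 2281, 2119 and 2171 in the junction and 1027, 767 and 889 in the forestomach (-1.48 ± 0.12, 2.79-fold lower, adjusted p = 7.67e-06). The forestomach arrays lay below both other zones without overlap. Nqo2, which uses other electron donors, was not called (-0.17 ± 0.14, adjusted p = 0.321), although with the mean of its 3 probe sets it was called lower (-0.28, adjusted p = 0.0222).

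Many members are neighbours on a chromosome, and neighbours did not always share a direction. In the Gstm cluster all 7 genes were tested, 3 higher and 2 lower in the forestomach, and the order along the chromosome (Gstm5, Gstm7, Gstm6, Gstm3, Gstm2, Gstm1, Gstm4) put Gstm7 between Gstm5 and Gstm6, which went the opposite way. In the Akr1c cluster 5 of 6 tested genes were lower and 0 higher. A run of 13 Ugt2 and Sult1 genes had 7 tested, of which 5 were lower, and Sult1e1, at its end beside Sult1d1, was the one higher. In the Aox cluster Aox3 (lower) stood between Aox1 and Aox4 (both higher). Both tested Gstp genes were higher, and 2 of 3 tested Gstt genes were lower. Near-identical neighbours can share probes, so members of a cluster are not independent observations.

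**Figure D3:**
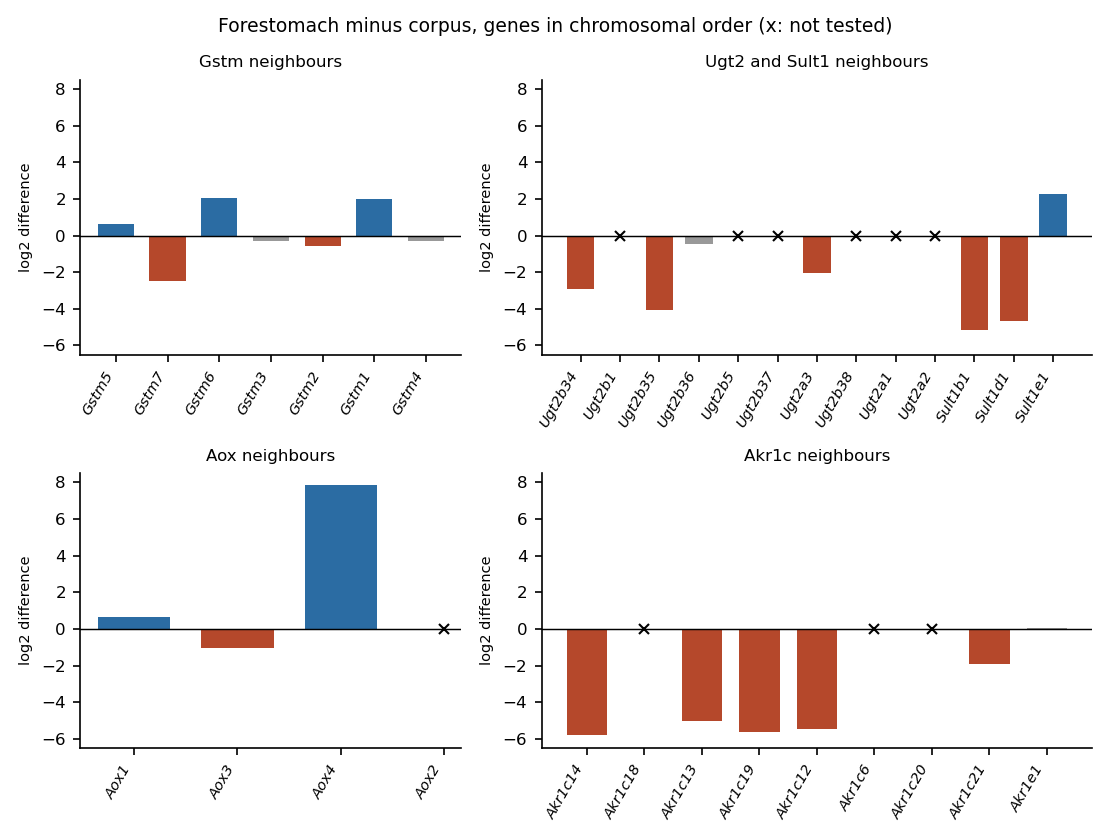
Difference between forestomach and corpus on the scale of log2(signal + 9.8) for the members of 4 gene clusters in chromosomal order, with blue bars for genes called higher in the forestomach, red for lower, grey for not called and a cross for genes not tested. Bars against a zone below the filter level (Akr1c19, Akr1c21, Aox4, Sult1e1, Ugt2a3 and Ugt2b35) show fitted values, for which the text gives lower bounds. The 5 called genes of the Akr1c cluster all point down, whereas the called genes of the Gstm cluster point both ways.

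The junction was next compared with each neighbour. Against the corpus, 10 members were higher (16.7%) and 14 lower (23.3%), where 13.2% and 11.8% of all genes were. Against the forestomach, 26 were higher (43.3%) and 15 lower (25%), where 21.5% and 23.1% of all genes were. Of the 44 members that differed between forestomach and corpus, 36 had a junction mean between the other means, and 19 were called in both junction comparisons in that order. These comparisons share arrays, so the counts are not independent. The same shares over all genes were not computed, so the counts are not read as a trait of these enzymes. Over all genes with a called 2-fold difference, the junction's linear position (0 corpus, 1 forestomach) also had its quartiles inside this range. They were 0.129 and 0.489 for genes higher in the forestomach and 0.23 and 0.587 for those lower. Counts against the corpus moved with single arrays. The 10 higher became 6 without junction array 3, and the 14 lower became 9 without corpus array 3, junction array 2 or junction array 3. In all 17 alternatives 13 of the 24 calls held, those of Aldh18a1, Aldh1a7, Aldh1l1, Aldh1l2, Aldh3b2, Aldh6a1, Aldh7a1, Aox4, Gstk1, Gstm1, Gstm7, Gstt1 and Sult2b1.

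Of the 16 members higher in the forestomach, 9 were also called higher in the junction than in the corpus. No such call was made for Aldh2, Aldh9a1, Aox1, Gstm5, Gstp1, Sult1e1 and Sult4a1. Among the 9, Aldh3b2 was higher in the junction than in the corpus by 2.73 ± 0.23 (adjusted p = 5.20e-05), Sult2b1 by 1.91 ± 0.15 (adjusted p = 3.85e-05), Gstm1 by 1.03 ± 0.13 (adjusted p = 7.11e-04) and Aldh1a7 by 0.70 ± 0.14 (adjusted p = 0.00854). All 4 were also lower in the junction than in the forestomach, by -1.08, -1.07, -0.96 and -0.95. Junction array 1 was the lowest of the 3 junction arrays for these 4 genes and for Aox4, and also had the lowest squamous marker sum of the 3 (75090.2). Gstm6 (0.94 ± 0.22, adjusted p = 0.0171), Gstp3 (at least 1.43-fold, adjusted p = 0.0192), Gsta2 (0.50 ± 0.12, adjusted p = 0.0177) and Akr1b10 (0.47 ± 0.13, adjusted p = 0.0316) were higher than in the corpus as well. Each of these lost its call without some single arrays (Gstm6 without corpus array 3 or junction array 2 or 3, Gstp3 without junction array 1 or 2, Gsta2 without corpus array 1 or 2 or junction array 3, Akr1b10 without corpus array 1 or 3 or junction array 1 or 3), with adjusted p from 0.0507 to 0.0948, and Akr1b10 also with the series as a paired block (adjusted p = 0.0628) and with the mean of its probe sets (0.05, adjusted p = 0.756). Sult1e1, by contrast, was at 4.3, 2.4 and 2.9 in the junction, below the filter level as in the corpus, and the forestomach was at least 1.51-fold above it (adjusted p = 6.14e-06).

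On the log2 scale the junction lay nearer to the corpus than to the forestomach for Akr1c12, Akr1c13, Akr1c14, Akr1c19, Sult1d1, Ugt2b34 and Ugt2b35. On the linear scale described below, their median positions between corpus (0) and forestomach (1) ran from 0.301 (Ugt2b34) to 0.446 (Sult1d1). In the junction Akr1c12, Akr1c13 and Akr1c14 were lower than in the corpus by similar amounts (-0.61 ± 0.16, -0.62 ± 0.15 and -0.67 ± 0.16, adjusted p = 0.026, 0.0201 and 0.0177) and higher than in the forestomach by 4.83 ± 0.16, 4.40 ± 0.15 and 5.14 ± 0.16 (adjusted p = 5.34e-07, 5.86e-07 and 5.02e-07). The junction arrays of each lay below all corpus arrays. The calls against the corpus were lost without corpus array 3, junction array 2 or junction array 3, and also without corpus array 1 for Akr1c12 and Akr1c14 or corpus array 2 for Akr1c13 (adjusted p from 0.0528 to 0.0877), and for Akr1c12 with the paired block (adjusted p = 0.0545). Akr1c19 was not called against the corpus (-0.70 ± 0.24, adjusted p = 0.0634) but was with the paired block (adjusted p = 0.0469) and without forestomach array 1 (adjusted p = 0.0162). Sult1d1 was lower by -0.78 ± 0.18 (adjusted p = 0.0166, and 0.0503 to 0.0545 without corpus array 3, junction array 2 or junction array 3). Ugt2b35 was lower by -0.76 ± 0.21 (adjusted p = 0.0282, and 0.0585 to 0.0938 without corpus array 1 or 3 or junction array 2 or 3). Ugt2b34 was not called (-0.41 ± 0.14, adjusted p = 0.0667, but 0.0371 with the paired block, 0.0437 without junction array 1 and 0.0421 without forestomach array 2).

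Sult1c2 and Sult1b1 were not called against the corpus (-0.45 ± 0.57, adjusted p = 0.609, and -0.48 ± 0.39, adjusted p = 0.408), although all 3 junction arrays of each lay below all 3 of the corpus. In the fit one variance per gene is taken from all 9 arrays, among them the unequal forestomach arrays. With the 6 corpus and junction arrays alone, a choice made after seeing the data, Sult1c2 was called lower (adjusted p = 0.0295). Sult1b1 was called in 0 of the 17 alternatives (lowest adjusted p = 0.0551).

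Several dehydrogenases and transferases were also lower in the junction than in the corpus. Aldh6a1 (-1.17 ± 0.18, adjusted p = 0.00192), Gstm7 (-1.04 ± 0.14, adjusted p = 9.90e-04), Aldh1l1 (-0.84 ± 0.12, adjusted p = 0.00121), Gstk1 (-0.71 ± 0.10, adjusted p = 0.00152) and Aldh18a1 (-0.69 ± 0.12, adjusted p = 0.00447) were called lower. None of the dimmer Aldh18a1 probe sets was called between junction and corpus (adjusted p from 0.256 to 0.543). Another 3 genes were below the corpus in the junction and not called against the forestomach. Aldh1l2 had 573, 551 and 532 in the corpus, 275, 246 and 254 in the junction and 284, 288 and 275 in the forestomach (junction minus corpus -1.07 ± 0.08, adjusted p = 3.40e-05, and junction minus forestomach -0.12 ± 0.08, adjusted p = 0.255). Its junction arrays lay below all corpus arrays, while the highest junction array (274.7) was level with the lowest forestomach array (274.8). Aldh7a1 had 397, 386 and 329 in the junction (-0.80 ± 0.12 against the corpus, adjusted p = 0.0018, and -0.13 ± 0.12 against the forestomach, adjusted p = 0.417), and Gstt1 719, 598 and 562 (-0.64 ± 0.14, adjusted p = 0.0126, and 0.06 ± 0.14, adjusted p = 0.742). Gstm2 was lower than in the corpus by -0.34 ± 0.08 (adjusted p = 0.0164, and 0.0501 without corpus array 1).

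Other members were called in the junction against the forestomach and not against the corpus. Nqo1 had all 3 junction arrays below all 3 of the corpus but was not called lower (-0.19 ± 0.12, adjusted p = 0.269), and it was above the forestomach by 1.29 ± 0.12 (adjusted p = 4.61e-05). Gsta4 and Gsto1 had junction means of 11951 ± 1144 and 13619 ± 912 (SD, n = 3), and were above the forestomach by 0.59 ± 0.10 and 0.74 ± 0.14 (adjusted p = 0.00185 and 0.00299). Neither was called against the corpus (adjusted p = 0.291 and 0.424). Gstm5 and Aldh2 were below the forestomach by -0.70 (adjusted p = 3.12e-04) and -0.35 (adjusted p = 0.0156) and not called against the corpus (adjusted p = 0.691 and 0.727). The Aldh2 call against the forestomach was lost without junction array 2 or forestomach array 1 (adjusted p = 0.0511 and 0.0575). Sult1a1 had its lowest mean in the junction, with 247, 201 and 376 overlapping the corpus arrays, and was below the forestomach (-1.03 ± 0.31, adjusted p = 0.0238), a call lost without junction array 1 or 2 or forestomach array 3 (adjusted p from 0.0691 to 0.0811). Against the corpus it was not called (-0.63 ± 0.31, adjusted p = 0.171), but it was with the paired block (adjusted p = 0.0161).

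No member was called above both neighbours or below both in the junction by the intersection-union test on limma's p-values, where 0.198% of all genes were above both and 0.0147% below both. At an unadjusted p under 0.05 there was 1 member, Gsta3. It had 291, 308 and 410.1 in the corpus, 422, 469.8 and 556 in the junction and 221, 252 and 282 in the forestomach, and every junction array exceeded all 6 others. Against the corpus the difference was 0.52 ± 0.16 (adjusted p = 0.0478) and against the forestomach 0.91 ± 0.16 (adjusted p = 0.002), but the joint test over all genes gave an unadjusted p of 0.0116 and an adjusted p of 0.488. A second Gsta3 probe set was not higher in the junction (-0.35 and -0.26, adjusted p = 0.223 and 0.305), and leaving out corpus array 1 or 2, junction array 2 or 3 or any forestomach array ended the call against the corpus (adjusted p from 0.0537 to 0.149).

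On the linear scale the junction's position was taken as its distance from the corpus divided by the distance of forestomach from corpus, within each series, for genes called with at least a 2-fold difference. The 19 such members lower in the forestomach had a median position of 0.399 and the 9 higher one of 0.362, against 0.422 over 1687 genes and 0.329 over 1798 genes. Members spread around these values. Nqo1 had a median of 0.213 over the 3 series, close to its corpus level, as did Aldh16a1 (0.219), whereas Aldh1l1 (0.760) and Aldh6a1 (0.750) lay nearer to forestomach level. Among genes higher in the forestomach, Sult1e1 was at 0.045, Aox4 at 0.314 and Aldh3b2 at 0.489. The values of Sult4a1, Gstp3, Aox3 and Ugt2a3 ranged widely between series, and their signals were dim.

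**Figure D4:**
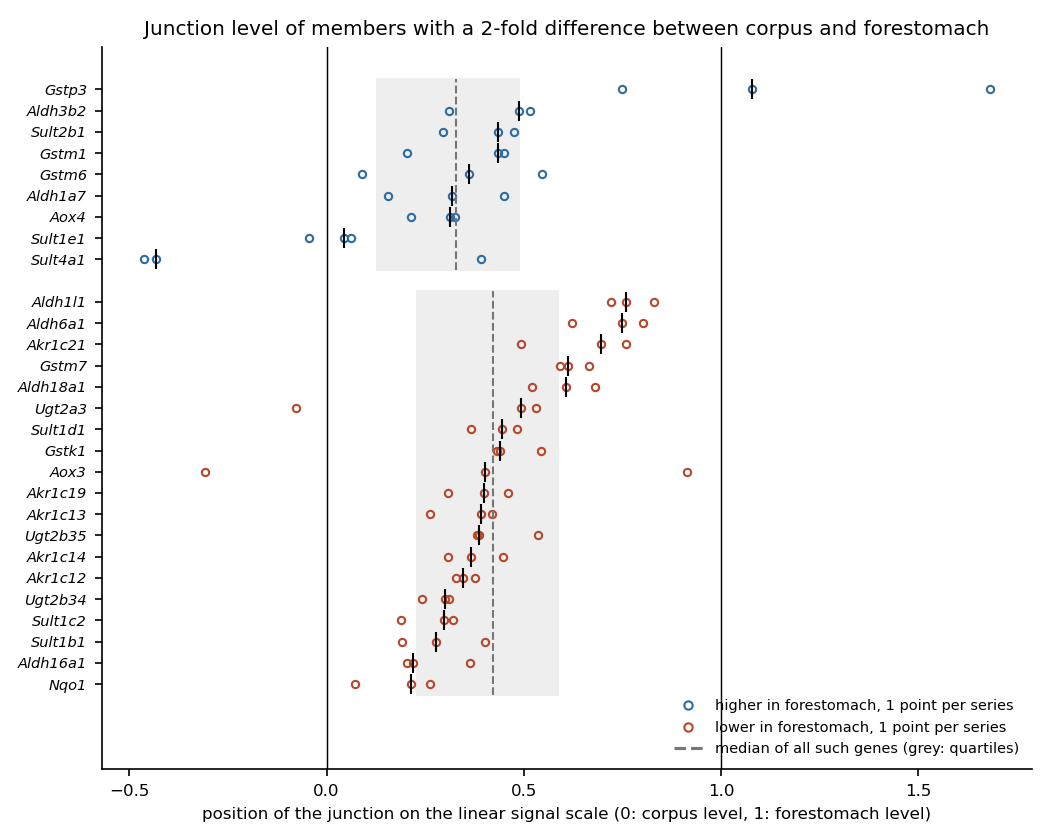
Position of the junction between corpus (0) and forestomach (1) on the linear signal scale for the 28 members called with at least a 2-fold difference, with a circle for each of 3 series and a bar at their median. The dashed lines are the medians over all genes called in that direction with at least a 2-fold difference (0.422 lower and 0.329 higher in the forestomach). Grey bands are their quartiles. Nqo1 and Sult1e1 lie near corpus level, while Aldh1l1 and Aldh6a1 lie nearer to forestomach than to corpus level.

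Genes that supply the cofactors of these reactions were examined as a list of 14 tested genes, of which 4 were higher and 9 lower in the forestomach (median -0.51, all genes -0.01). Over all genes 30.0% were called higher and 29.9% lower. The sulfate donor PAPS is made by Papss1 and Papss2, and its spent form is degraded by Bpnt1. Papss2 had 2964, 2959 and 3397 in the corpus, 2249, 2326 and 2063 in the junction and 269.8, 236 and 235 in the forestomach (-3.60 ± 0.10, adjusted p = 7.40e-08). Bpnt1 had 2184, 1829.8 and 2142, then 1499.5, 1135 and 1183, then 335, 342 and 379 (-2.51 ± 0.13, adjusted p = 6.91e-07). Papss1 was not called (0.00 ± 0.10, adjusted p = 0.995) and was higher in the junction than on both sides by 0.41 and 0.41 (adjusted p = 0.0162 and 0.00856, each taken alone). By the intersection-union test, however, 0 of the 14 genes of the list, and so not Papss1, were called above both neighbours. Ugdh, which makes UDP-glucuronate, had 4841, 4764 and 4663 in the corpus and 1033, 1271 and 1151 in the forestomach (-2.04 ± 0.10, adjusted p = 4.64e-07). Papss2, Bpnt1 and Ugdh were lower in the forestomach, as were the called Ugt2 genes and Sult1b1, Sult1c2 and Sult1d1. The other called sulfotransferases, Sult2b1, Sult1e1 and Sult4a1, were higher there. The shared Ugt1a probe sets, for which no test was made, were higher there too. A link between these supply genes and the enzymes was not tested.

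Of the 5 molybdenum cofactor genes tested, 4 were higher and 1 lower in the forestomach, where 30.0% and 29.9% of all genes were. These 5 are a part of the list of 14 supply genes, of which 4 were higher and 9 lower. Mocos, which adds the sulfur that aldehyde oxidases and xanthine dehydrogenase need, had 111, 142 and 98.3 in the corpus, 357, 391 and 532 in the junction and 630.1, 706 and 769.5 in the forestomach (2.50 ± 0.18, adjusted p = 4.43e-06). Mocs2, a subunit gene of molybdopterin synthase, had 944, 994 and 846, then 1267, 1457 and 1643, then 2651, 2483 and 2451 (1.44 ± 0.12, adjusted p = 9.50e-06). Both rose from corpus over junction to forestomach with no overlap of zones. Gephyrin (Gphn, 0.65 ± 0.08, adjusted p = 1.62e-04) and Mocs1 (0.38 ± 0.13, adjusted p = 0.0305) were higher in the forestomach, and Mocs3 lower (-0.42 ± 0.10, adjusted p = 0.00623). Xanthine dehydrogenase (Xdh), a relative of Aox that needs the same sulfurated cofactor, had 228, 239 and 363 in the corpus and 2294, 2241 and 2562 in the forestomach (3.08 ± 0.19, adjusted p = 1.83e-06). Sulfite oxidase (Suox), which uses the cofactor without Mocos, was lower (-2.25 ± 0.14, adjusted p = 1.75e-06).

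**Figure D5:**
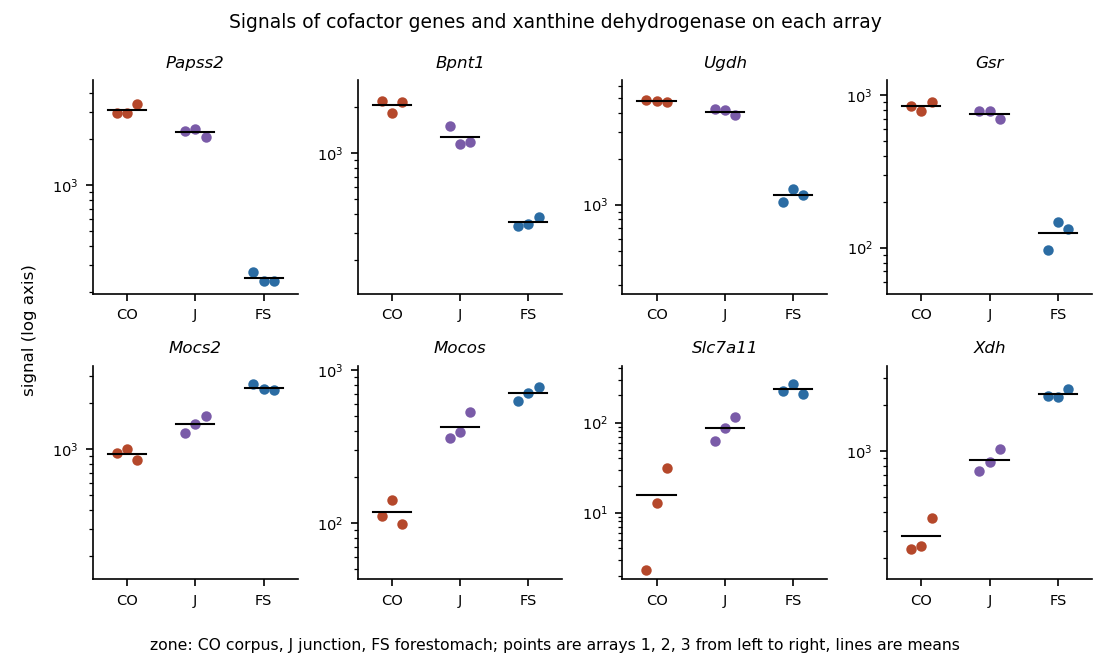
Signals on each array, on a log axis that differs between panels, of genes that supply sulfate donor (Papss2, Bpnt1), UDP-glucuronate (Ugdh), glutathione (Gsr, Slc7a11) and molybdenum cofactor (Mocs2, Mocos), and of xanthine dehydrogenase (Xdh), with corpus (CO), junction (J) and forestomach (FS) from left to right and a line at the mean of 3 arrays. Papss2, Bpnt1, Ugdh and Gsr are lowest in the forestomach, and the other 4 are highest there.

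Of 22 genes of glutathione synthesis and recycling, 13 were higher and 6 lower in the forestomach (median 0.32). Beside this list and those below, 30.0% of all genes were called higher and 29.9% lower. Glutathione reductase (Gsr) had 852, 786 and 895 in the corpus, 783, 779 and 694 in the junction and 96.1, 147 and 132 in the forestomach (-2.68 ± 0.15, adjusted p = 9.34e-07), and Gclc, the catalytic subunit of the first step of synthesis, was lower as well (-1.44 ± 0.09, adjusted p = 1.49e-06). The cystine importer Slc7a11 (3.43 ± 0.40, adjusted p = 9.38e-05), the peroxidase Gpx2 (2.49 ± 0.17, adjusted p = 3.35e-06) and glutaredoxin (Glrx, 2.49 ± 0.13, adjusted p = 6.60e-07) were higher. Of 27 other conjugation and reduction enzymes, 8 were higher and 14 lower (median -0.24). The carbonyl reductase Cbr2 had the largest rise (4.48 ± 0.21, adjusted p = 4.42e-07). The membrane-bound glutathione transferases divided like the soluble ones, with Mgst1 higher (2.63 ± 0.14, adjusted p = 7.40e-07) and Mgst2 and Mgst3 lower (-2.03 ± 0.09 and -2.11 ± 0.14, adjusted p = 3.59e-07 and 2.42e-06). Of 14 genes that remove conjugates, 4 were higher and 7 lower (median -0.56), led by aminopeptidase N (Anpep), which trims glutathione conjugates (-4.13 ± 0.17, adjusted p = 2.13e-07), and by the efflux pump Abcb1b in the other direction (2.53 ± 0.30, adjusted p = 9.86e-05).

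Regulators and indicator genes did not share a direction either. Of 19 tested, 8 were higher and 5 lower in the forestomach (median 0.30), where 30.0% and 29.9% of all genes were. Nfe2l2, which encodes Nrf2, was not called (-0.13 ± 0.10, adjusted p = 0.297), and of its well-known targets Hmox1 (3.87 ± 0.17, adjusted p = 3.05e-07) and Srxn1 (1.20 ± 0.12, adjusted p = 2.94e-05) were higher in the forestomach, where Nqo1 and Gclc were lower. Ahr and its target Cyp1a1 were not called (-0.10 ± 0.09 and 0.53 ± 0.35, adjusted p = 0.406 and 0.223). The epithelial factor Hnf4a (-5.20 ± 0.44, adjusted p = 1.36e-05) and the pregnane X receptor gene Nr1i2 (-1.32 ± 0.11, adjusted p = 1.25e-05) were lower, and Ppara was higher (1.74 ± 0.15, adjusted p = 1.53e-05). An mRNA level does not measure the activity of such a factor.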

How the data were processed

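The 9 arrays were hybridised with biotin-labelled cRNA made from Trizol-extracted total RNA, per the labels' protocols. The deposited intensity values are linear and give 1 signal for each probe set. MAS5 is named for them by the submitters' processing notes, with no version or setting. With 2% trimmed from either end, the mean of every array was 200.0 and its median 47.9 to 57.1. MAS5 subtracts mismatch signal, which leaves dim values noisy.

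Of 45101 probe sets, 64 controls were left out. The platform annotation gave 34958 probe sets 1 symbol, 932 several and 9211 none, and for 34741 of them the symbol was brought up to date through its Entrez ID in RefSeq's table of build GRCm38.p6. Signals above the array's 40th percentile (29.0 to 36.5) on 3 arrays were kept. Values were analysed as log2(signal + 9.8), a pseudocount equal to the median of the arrays' 20th percentiles, with limma 3.58.1 in R 4.3.3, 1 mean per zone, all 9 arrays (6 residual and 2.56 prior degrees of freedom). The script was tested on simulated data. Figures used Python 3.11.15 and matplotlib 3.10.9.

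Arrays of a series come from the same mice, so the series number pairs them by design. Residuals after removing zone means had correlations of r = -0.0287 to 0.123 within a series (mean 0.0329, 9 pairs). Alternatives were the series block, pseudocounts of 1 and 30.9, dropping or tightening the filter (60th percentile), quantile normalization, averaging over the probe sets of a gene, leaving out each array and, chosen after seeing the data, only the 6 arrays compared. Members and lists were chosen with earlier results of these data known. Every tested member could be named. Full values went to up to 15 members each way between forestomach and corpus, up to 8 each way for the junction, and a preset group of well-known enzymes.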

Additional observations from a re-analysis of the deposited data

How the results depend on the processing

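Between forestomach and corpus, 42 of 44 calls of members held in all 17 alternatives, Aldh2 and Gstp1 lost theirs in some and 6 members gained one. Against the corpus 13 of 24 calls of the junction held in all, and against the forestomach 29 of 41. No called member changed sign. Differences without a call changed sign in 33 instances. Leaving out 1 array, the members higher in the junction than in the corpus numbered 6 to 9 and those lower 9 to 17. These counts thus moved with the array left out, and the cause was not tested. Without a forestomach array, which is in neither zone compared, they were 9 higher and 14 or 15 lower. With the series as a paired block, 17 members were higher and 29 lower in the forestomach than in the corpus, 9 and 17 in the junction than in the corpus, and 24 and 15 in the junction than in the forestomach, with 0 above or below both. Folds of genes near the filter level moved with the pseudocount, for example Akr1c19 from -4.73 to -6.33 on the log2 scale, and with a pseudocount of 1 Aox4 lost its call between junction and forestomach (adjusted p = 0.0519). The stricter filter tested fewer genes. Signal over background limits the 8 members given as lower bounds.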

Other observations

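Probe sets with several symbols that belong in no comparison of members gave these values. The probe set of Ugt2a1 and Ugt2a2 was at 7.2, 6.1 and 1 in the corpus and 14.2, 2.9 and 2.5 in the forestomach, and one shared by Aldh3b2 and Aldh3b3 was at 18.1, 18.6 and 9.7 in the corpus and 29.4, 25.8 and 39.2 in the forestomach, all near or below the filter level. A second probe set of that pair read 45.5, 6.3 and 22.1 and 39.5, 24.4 and 25.1. The other 2 Ugt1a probe sets had forestomach signals of 2433, 2496 and 2299, and of 2114, 2029.7 and 2002, against 1848, 2022 and 1893, and 1073, 1204 and 1264, in the corpus.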
